A study of Rattus norvegicus with 6 samples.

Results

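The genes described here encode the sheet-forming collagens and the laminin network of basement membranes: Col8a1, Col4a1, Col4a2 and Col18a1, the laminin chains Lama4, Lamb1, Lamb2 and Lamc1, and the linkers Nid1 (nidogen) and Hspg2 (perlecan). They were found by gene symbol in the platform's annotation. Of the 10 genes, 5 had a probe with that symbol (Col8a1, Col4a1, Col18a1, Lamb2 and Lamc1), 1 probe each, out of 13337 named genes on the array, and all 5 passed the filter on dim probes. Col4a2, Lama4, Lamb1, Nid1 and Hspg2 had no probe of that name and were not analysed here.

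Levels were measured with Illumina beadchips in total RNA of cultured primary rat astrocytes. The M337V group, 3 arrays, carried a GFAP-tTA transgene together with a TRE-TDP43 transgene encoding the M337V mutant of TDP-43, an RNA-binding protein linked to amyotrophic lateral sclerosis. The control group, 3 arrays, carried GFAP-tTA alone, so tTA was shared by all cells. tTA is active once doxycycline (Dox) is withdrawn, and the astrocytic GFAP promoter drives it, so withdrawal turns the mutant transgene on. Each genotype had 1 array at each of 3 times, which were 3, 4 and 6 days of Dox withdrawal. The labels give neither the age nor the number of the rats, nor whether separate cultures were used for the arrays within a genotype. The p-values therefore measure how the difference between genotypes varied over the 3 days, and a difference between cultures cannot be told apart from the genotype.

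A basement membrane is a thin sheet of matrix that underlies epithelia and endothelia, and in the brain it lies between blood vessels or the pia and the end-feet of astrocytes. Laminins, trimers of an alpha, a beta and a gamma chain, assemble into one network at the cell surface, and type IV collagen, in its common form a trimer of alpha1 and alpha2 chains, forms another. Nidogen and perlecan connect them. Type VIII collagen is a short-chain collagen that builds hexagonal lattices, best known beneath the corneal endothelium and in vessel walls. Type XVIII collagen carries heparan sulfate chains, and its end fragment is endostatin.

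Col4a1 and Col4a2 are neighbours that start in opposite directions. In RefSeq (rat build GRCr8) 76 bases lie between the 2 starts, at chr16:84885521-84885596, so this stretch lies upstream of the measured gene Col4a1 and of the unmeasured Col4a2. It is shown with the 76 bases upstream of the starts of Col8a1 (chr11:56246706-56246781, plus strand) and Lamc1 (chr13:68051987-68052062, minus strand), the 2 genes whose fall passed the test. The Col8a1 window lies inside the annotated span of that gene, downstream of another start. All are written 5′ to 3′ on the strand of the gene, that of Col4a1 on the plus strand, and capitals mark the letters GGGCGG on either strand.
Col8a1: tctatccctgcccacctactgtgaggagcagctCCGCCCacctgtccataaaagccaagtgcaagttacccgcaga
Col4a1: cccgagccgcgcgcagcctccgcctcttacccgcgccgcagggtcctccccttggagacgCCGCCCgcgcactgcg
Lamc1: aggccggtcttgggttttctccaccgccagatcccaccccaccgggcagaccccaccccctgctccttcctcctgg

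GGGCGG, the core of the GC box, was found once in the Col8a1 and once in the Col4a1 window and not in that of Lamc1. Of the windows of the same length upstream of 33469 rat genes, 18.1% hold it. TATAAA (the TATA box, in 4.61% of windows), CCAAT (13%), CCCTCCCC (the CTC box described in human type IV collagen genes, 3.99%) and TGANTCA (an AP-1 site, 1.8%), searched on both strands, were not found in these 3 windows, and no match overlapped another. The windows held 56.6% G and C for Col8a1, 78.9% for Col4a1 and 68.4% for Lamc1, where the median over all windows was 53.9%.

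In normalized signal all 5 measured genes were lower in M337V than in control astrocytes on each of the 3 days. Before normalization 3 of them had the higher signal in M337V on day 6. These were Col4a1 (424 against 406), Col18a1 (228 against 204) and Lamb2 (4898 against 4845). For Col8a1 and Lamc1 the normalized difference passed the test. Col8a1 stood far below the others, 9.60-fold lower in M337V, and Lamc1 was 1.54-fold lower. Col4a1 averaged 1.69-fold lower, with most of the difference on day 3, and Col18a1 (1.27-fold lower) and Lamb2 (1.17-fold lower) did not pass. The test was limma's moderated fit of the genotype with the day as a factor, with p adjusted by Benjamini-Hochberg over 7580 genes and a threshold of 0.05. By that rule 2 of the 5 genes were lower and 0 higher, while 9.85% of all genes tested were called lower and 9.75% higher. A difference below 0 on all 3 days was seen in 32.2% of all genes. The median difference of the 5 genes was -0.62 on the log2 scale, and that of all genes tested was -0.05.

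Across the series the mean signal per array was 377 to 554 in M337V and 468 to 481 in control astrocytes, and 43.8% to 48.3% of 22523 probes were detected. Of the 7580 genes, 1486 were called, or 19.6%. Of these calls 50.3% were lower in M337V, against 60.3% with the authors' deposited values and 35.5% with median scaling. The 5 genes were lower in M337V under these scalings too. Markers of other cell types differed between the genotypes, as given below. A bulk RNA sample cannot tell fewer cells of a type from less RNA per cell.

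**Figure D1:**
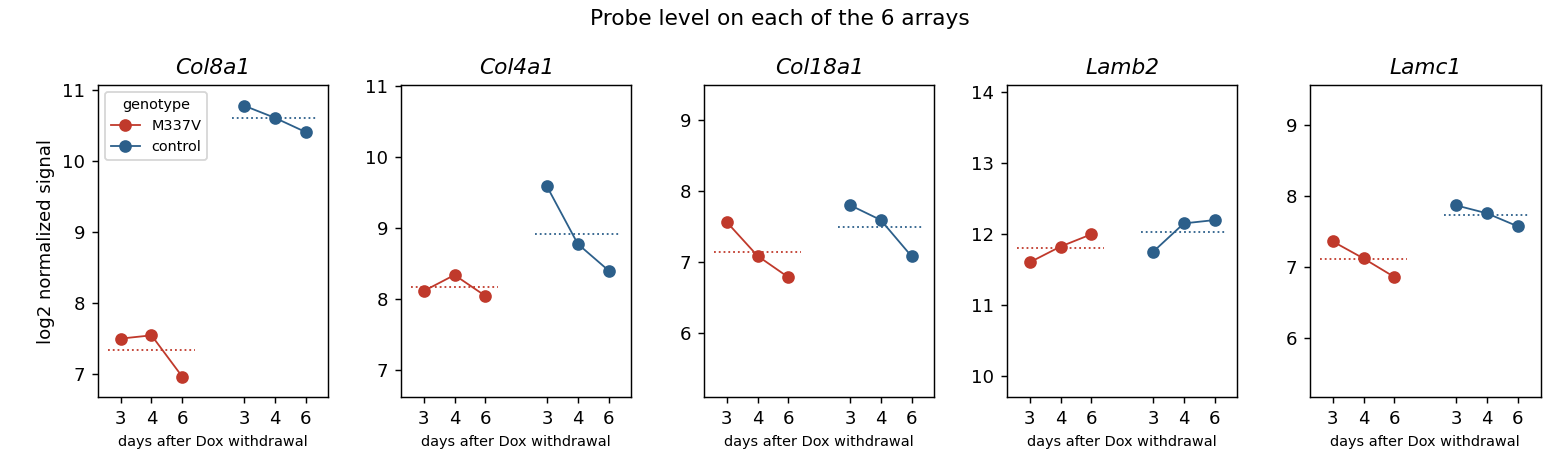
Log2 normalized signal (vertical axis, 4.4 log2 units high in each panel, with its own start) of each gene's probe on every array, by days after Dox withdrawal as categories, M337V on the left and control on the right of each panel; dotted lines are the means of 3 arrays. Col8a1 lies between 6.96 and 7.54 in M337V and between 10.40 and 10.78 in control astrocytes, while the 2 groups share part of their range for Col18a1 and Lamb2.

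Col8a1 (probe ILMN_1362033) encodes the alpha1 chain of type VIII collagen. Its level, as log2 of normalized signal, was 7.49, 7.54 and 6.96 in M337V astrocytes on days 3, 4 and 6, against 10.78, 10.60 and 10.40 in control astrocytes. All 3 M337V arrays lay far below the lowest control array, and the groups did not overlap. Before normalization the bead signal was 208, 307 and 248 in M337V and 1837, 1571 and 1442 in control astrocytes, and these groups did not overlap either. M337V signals were still above background on every array, at 2.14 to 2.67 times the median probe of their array, where control signals were 14.1 to 17.6 times it. The difference was -3.26 ± 0.11 (SE, n = 3 days; 95% interval -3.55 to -2.98; adjusted p = 0.000215 by limma). By size it ranked 2 among the falls of the 7580 genes. On the single days Col8a1 was 9.71-fold, 8.36-fold and 10.9-fold lower in M337V, where 2.28%, 1.75% and 2.24% of all genes were at least 2-fold lower on days 3, 4 and 6. Its interval did not overlap those of the other 4 genes.

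The call of Col8a1 held in all 14 alternatives tried, in which the difference ran from -3.36 to -2.67 and the adjusted p from 2.11e-15 to 0.00184. The fold depends on the background correction: without it the difference was -2.67, and with the authors' deposited values -2.80.

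Col4a1 (ILMN_1360318) encodes the alpha1 chain of type IV collagen, the scaffold of every basement membrane. Its log2 level was 8.11, 8.34 and 8.04 in M337V astrocytes on days 3, 4 and 6, against 9.58, 8.77 and 8.40 in control astrocytes. The M337V arrays were nearly level over the days, whereas the control array of day 3 stood above all others. The groups did not overlap, but the highest M337V array (8.34) and the lowest control array (8.40) nearly met. Before normalization they did overlap, with bead signals of 283 to 458 in M337V and 406 to 834 in control astrocytes. Normalized ranges did not overlap, with M337V lower, for 3 of the 5 genes (Col8a1, Col4a1 and Lamc1) and for 19.6% of all genes.

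The mean difference of Col4a1 was -0.76 ± 0.24 (SE, n = 3 days; 95% interval -1.34 to -0.17) and did not pass (adjusted p = 0.0808). It was 2.78-fold lower in M337V on day 3, 1.35-fold lower on day 4 and 1.28-fold lower on day 6. Without the 2 arrays of day 3 the difference was -0.40 (adjusted p = 0.0976). It passed in 5 of 14 alternatives, among them the authors' deposited values (-0.65, adjusted p = 0.0164) and median scaling (-0.68, adjusted p = 0.0275).

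Col18a1 (ILMN_1364899) encodes the alpha1 chain of type XVIII collagen, a heparan sulfate proteoglycan of basement membranes. Its log2 level was 7.56, 7.08 and 6.78 in M337V astrocytes on days 3, 4 and 6, against 7.79, 7.58 and 7.07 in control astrocytes. On each day M337V was the lower, but the groups overlapped, and in both genotypes day 3 was the highest. The difference was -0.35 ± 0.11 (SE, n = 3 days; 95% interval -0.61 to -0.08) and did not pass (adjusted p = 0.0767), nor did it in any of the 14 alternatives (0.0525 to 0.534).

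Of the laminins, Lamc1 (ILMN_1355835) encodes the gamma1 chain, which is part of most laminin trimers. Its log2 level was 7.36, 7.12 and 6.85 in M337V astrocytes on days 3, 4 and 6, against 7.86, 7.75 and 7.57 in control astrocytes. All M337V arrays lay below all control arrays. Lamc1 fell by 0.62 ± 0.10 on the log2 scale (SE, n = 3 days; 95% interval -0.87 to -0.37; adjusted p = 0.0134 by limma). The fold was 1.42, 1.55 and 1.64 on days 3, 4 and 6. The call was lost with median scaling (-0.50, adjusted p = 0.0589) and without the arrays of day 4 (-0.61, adjusted p = 0.0796). Without background correction the difference was -0.39.

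Lamb2 (ILMN_1365992) encodes the beta2 chain, which is found in the laminins of vessels, muscle and the neuromuscular junction. Its log2 level was 11.60, 11.82 and 11.99 in M337V astrocytes on days 3, 4 and 6, against 11.75, 12.15 and 12.19 in control astrocytes. M337V was the lower on each day, but the groups overlapped, and in both genotypes day 6 was the highest. The difference was -0.22 ± 0.10 (SE, n = 3 days; 95% interval -0.47 to 0.02; adjusted p = 0.178). It passed with the deposited values (-0.34, adjusted p = 0.0104) and with a variance trend (adjusted p = 0.0359). The intervals of Lamc1 and Lamb2 overlap, and whether the gamma1 and beta2 chains differed in their response was not tested.

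**Figure D2:**
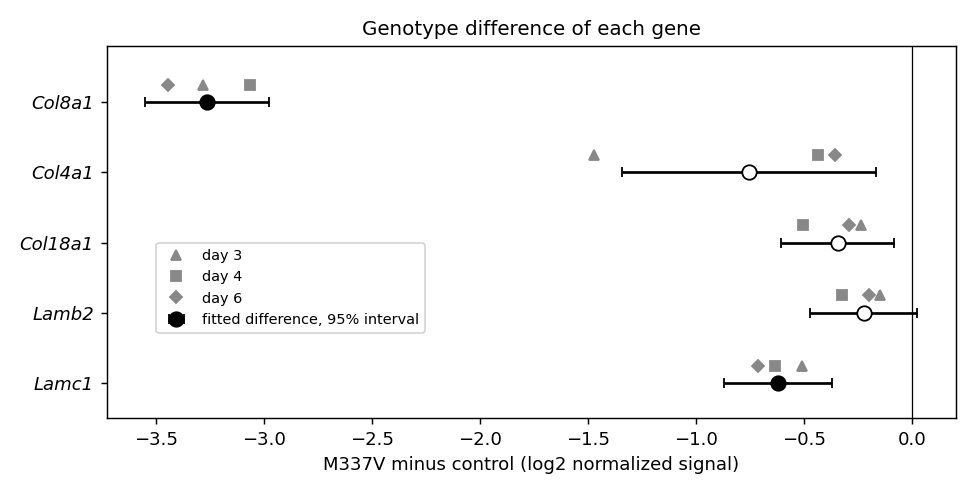
M337V minus control (horizontal axis, log2 normalized signal) for each gene: circles are the fitted differences with 95% intervals, filled where the adjusted p is under 0.05, and grey marks are the differences on days 3, 4 and 6. Col8a1 lies at -3.26, and the 3 days of Col4a1 spread from -1.47 to -0.36.

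The next question was whether the levels changed with the day after Dox withdrawal. Day 6 minus day 3 over both genotypes, from the same fit, was -0.75 ± 0.13 for Col18a1 (SE; adjusted p = 0.0509), which did not pass but did in 5 of 11 alternatives (adjusted p from 0.00923). It was -0.78 in M337V and -0.72 in control astrocytes. For Lamb2 it was 0.42 ± 0.12 (adjusted p = 0.125), with 0.40 in M337V and 0.45 in control astrocytes, and it passed in 3 of 11 alternatives. For Col8a1 it was -0.45 ± 0.14 (adjusted p = 0.144), which passed in 2 of 11. Lamc1, at -0.40 ± 0.12 (adjusted p = 0.143), and Col4a1, at -0.63 ± 0.29 (adjusted p = 0.273), passed in none. Thus 0 of the 5 genes passed by limma, with 4 at an unadjusted p under 0.05, and 2.84% of all genes passed. Col4a1 was -0.07 in M337V and -1.18 in control astrocytes over this span. Without the day 4 arrays 0 of the 5 genes passed, and 1 of the 7580 did.

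The slope of the genotype difference with the day tells whether the gap between M337V and control widened or closed. For Col4a1 it was 0.32 ± 0.13 log2 units per day (SE; adjusted p = 0.507, unadjusted p = 0.0494), a positive slope meaning a gap that was smaller on later days. It passed in 5 of 9 alternatives, including the deposited values (0.29, adjusted p = 0.00223) and no background correction (0.28, adjusted p = 0.000518). For the other 4 genes the slopes lay between -0.07 and -0.0009 per day and passed in none of the 9 alternatives, and their signs turned in some. No gene of the 7580 passed this test with limma, although 9.78% had an unadjusted p under 0.05 and 254 genes passed with an offset of 50 before log2 instead of 16. The fit leaves 1 residual degree of freedom.

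Over the 6 arrays, the genes outside the family with levels most like those of Col8a1 were Kcnk2, a potassium channel (Pearson r = 0.999), Itga1, the alpha1 chain of a collagen-binding integrin (0.998), Rasl11b, a small GTPase of the Ras family (0.997), and Aga, a lysosomal amidase (0.997). Kcnk2 was 3.19-fold, Itga1 3.98-fold, Rasl11b 3.70-fold and Aga 1.31-fold lower in M337V. The arrays share the gap between the genotypes, and 225 genes had an r over 0.95 with Col8a1. The levels most like those of Col4a1 were those of Gpr180 (0.996), Ipp (0.992), Yipf4 (0.991) and Ptgr1 (0.989), and 49 genes were over 0.95. Each of these 4 was highest on the control array of day 3, the array on which Col4a1 was highest. Their differences ran from -0.71 (Ptgr1) to -0.22 (Yipf4) and did not pass, with adjusted p of 0.0707 for Ptgr1 and 0.219 for Yipf4.

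Other genes of the basement membrane, and of collagen processing, cross-linking and turnover in general, were taken from 6 lists. The lists came from textbook knowledge, but with earlier results of these data known, so their shares describe and do not test. Of 49 genes tested 19 fell (38.8%) and 2 rose (4.08%), against 9.85% and 9.75% of all genes. Most falls were in the lists of folding and of cross-linking genes, with 8 in each. Without the day in the model 11 of the 49 fell and 1 rose, and without the day 4 arrays 6 fell and 1 rose. Few other building blocks were bright enough to be tested. Of 7 further laminin chains 3 had a probe and 1 was tested, Lamb3, which did not pass. Of 12 further network and basement membrane collagens 8 had a probe and 1 was tested, Col6a1, which did not pass. The probes of Lama1, Lamc3, Col4a4, Col4a5, Col7a1 and Col17a1 were below background on all 6 arrays. Among 5 tested linkers and proteoglycans, all lower in M337V in value, 1 passed: Sparc, a matricellular protein that binds type IV collagen, fell by 0.45 ± 0.10 (adjusted p = 0.0322). Sparc lost its call when the arrays of any 1 day were left out (adjusted p up to 0.182).

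Among the receptors for laminin and type IV collagen, 2 of 9 fell and 1 rose (median -0.32). Itga1, whose integrin binds type IV collagen, fell by 1.99 ± 0.11 (SE, n = 3 days; adjusted p = 0.000719). Itga7, the alpha chain of a laminin-binding integrin of muscle, fell by 0.53 ± 0.10 (adjusted p = 0.0182), and lost its call in 4 of 14 alternatives (up to 0.117). Itgb4, the beta chain of the laminin-binding integrin of hemidesmosomes, rose by 2.25 ± 0.10 (adjusted p = 0.00044), a call lost without the day in the model (adjusted p = 0.0547).

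Of 16 genes for folding, modifying and exporting collagen chains 8 fell and 0 rose, with a median of -0.52. The largest falls were those of P4ha2 (-1.04 ± 0.19, adjusted p = 0.0193) and P4ha1 (-0.78 ± 0.11, adjusted p = 0.00886), catalytic chains of the prolyl 4-hydroxylase that stabilises the collagen helix, and of P3h1 (-0.90 ± 0.11, adjusted p = 0.00541), a prolyl 3-hydroxylase. P4ha2 was likewise near the lowest detected signal in M337V (5.13 to 5.49), and without background correction its difference was -0.39. Without the day 4 arrays P4ha2 (adjusted p = 0.0513) and P4ha1 (0.0558) no longer passed, nor did P3h1 without the day in the model (0.089). These enzymes act on collagens of many types.

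Of 17 genes for cross-linking and turnover of the network 8 fell and 1 rose (median -0.30). Hpse, the heparanase that cuts heparan sulfate chains such as those of perlecan and type XVIII collagen, fell by 1.87 ± 0.18 (adjusted p = 0.00276). Its M337V levels of 5.04 to 5.40 lie near the lowest detected signal of those arrays (4.89 to 5.06), and without background correction the difference was -0.81, or 1.75-fold in place of 3.64-fold. Loxl2, a lysyl oxidase that cross-links type IV collagen, fell by 1.80 ± 0.15 (adjusted p = 0.00203). Without background correction its difference was -1.23, or 2.34-fold in place of 3.48-fold. Lox, of the same family, fell by 1.65 ± 0.11 (adjusted p = 0.00113, and 0.0868 without the day in the model). Plat, tissue plasminogen activator, rose by 0.56 ± 0.10 (adjusted p = 0.0193) and lost its call with median scaling and when any 1 day was left out (up to 0.0796). In the lists of folding and of cross-linking genes 50% and 47.1% of the tested genes fell, against 9.85% of all genes. The share was 22.2% among the receptors, 20% among the linkers and proteoglycans, and 0 of 1 in each of the lists of laminin chains and collagens.

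**Figure D3:**
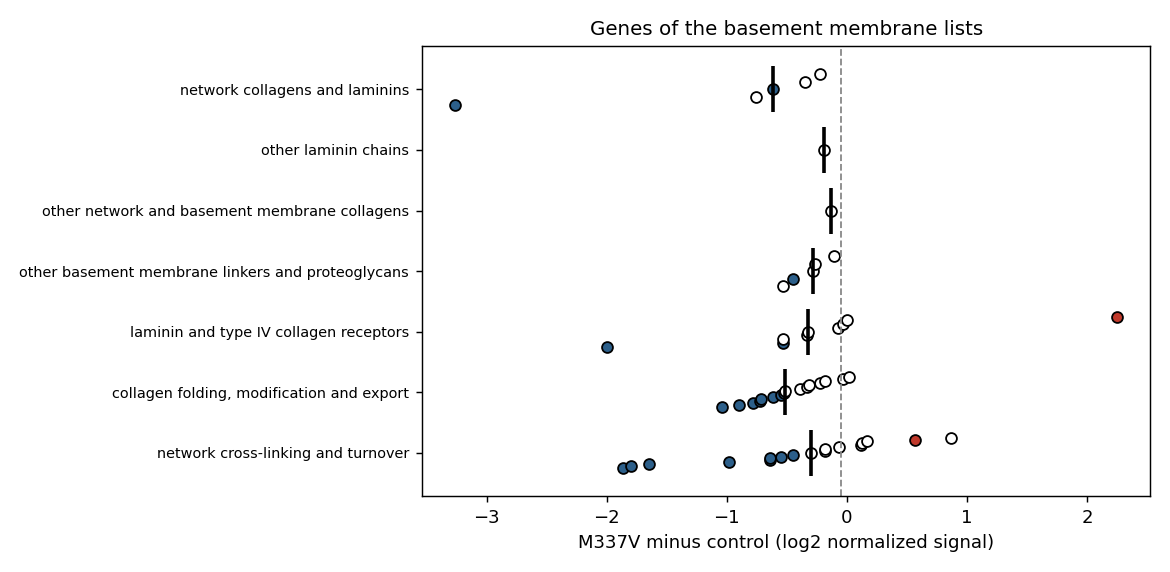
M337V minus control (horizontal axis, log2 normalized signal) for every tested gene of the 5 measured genes (top) and of the 6 lists, 1 circle per gene, filled blue where it fell and red where it rose at an adjusted p under 0.05; black bars are list medians and the dashed line the median of all genes, -0.05. Most filled circles lie left of 0, with Itgb4 at 2.25 and Plat at 0.56 as the filled circles to its right.

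Cells that make basement membrane in the brain include endothelial cells, pericytes and fibroblasts besides astrocytes, and lists of their markers were measured on the same arrays. Of 10 fibroblast and meningeal genes tested 5 fell and 3 rose, where 9.85% of all genes fell and 9.75% rose. Lum, which rose, and Ptgds, which did not pass, were detected on no control array and entered the test only through the M337V arrays. The summed normalized signal of the list was 18394 to 30744 in M337V and 39908 to 56622 in control astrocytes. Most of this sum came from the matrix genes Col1a2 (mean log2 level 13.94 in M337V and 14.89 in control astrocytes) and Fn1 (12.85 and 13.91). Both were among the falls, so the sum says little about the rest of the list. Within it Postn, a matricellular protein, fell by 1.88 (adjusted p = 0.00162) and the growth factor receptor Pdgfra rose by 2.38 (adjusted p = 0.00327), while Igf2 was at least 3.34-fold higher (adjusted p = 0.0158 by limma), a bound because 1 of the 3 control arrays was below background. Dcn, Fap and Vtn were below background on all arrays.

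Of 6 pericyte and smooth muscle genes 3 fell (Cnn1, Myl9 and Tagln) and 0 rose, where 9.85% of all genes fell and 9.75% rose. Their list had a sum of 6619 to 9188 in M337V and 9711 to 12482 in control astrocytes, most of it from Tagln. Rgs5 was below background throughout. Of 6 endothelial genes 2 rose (Esam and Vwf) and 1 fell (Cldn5), with a sum of 445 to 556 in M337V and 343 to 495 in control astrocytes. The group means of these called genes, 4.47 to 5.68, lay near the lowest detected signals of the arrays (4.89 to 5.06). Esam was detected on no control array and entered the test only through the M337V arrays. Vwf was detected on 2 of 3 control arrays and Cldn5 on 2 of 3 M337V arrays. Cldn5 passed narrowly (adjusted p = 0.0499 by limma). The defining endothelial genes Cdh5, Emcn and Tek were below background on all arrays.

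Microglia and macrophage genes were higher in M337V, 11 of 13 rising and 0 falling. Their summed signal was 8302 to 26501 in M337V and 649 to 980 in control astrocytes. C1qa, C1qc, Ptprc and Tyrobp, which rose, and Cx3cr1, which did not pass, were detected on no control array. They entered the test only through the M337V arrays, so a fall could hardly have been called for them. Aif1, C1qb, Ctss and Trem2, which rose, were detected on 1 control array and Laptm5, which rose, on 2. These genes too needed the M337V arrays to pass the filter. Of the oligodendrocyte lineage 5 of 6 rose and of ependymal cilium genes 5 of 5, with 0 falling in either list. Sox10 and Ugt8, which rose, and Mbp, which did not pass, were detected on 1 control array and likewise needed the M337V arrays. Over all genes tested 9.75% rose and 9.85% fell. All 9 astrocyte markers with a probe were bright enough to be tested, 2 rising (S100b and Aqp4) and 1 falling (Fgfr3), and their sum was 107630 to 111580 in M337V and 95241 to 106450 in control astrocytes. Gfap averaged 15.07 in M337V and 15.01 in control astrocytes (log2). The part of these cell types in the levels of Col8a1, Lamc1 and the other genes was not tested.

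**Figure D4:**
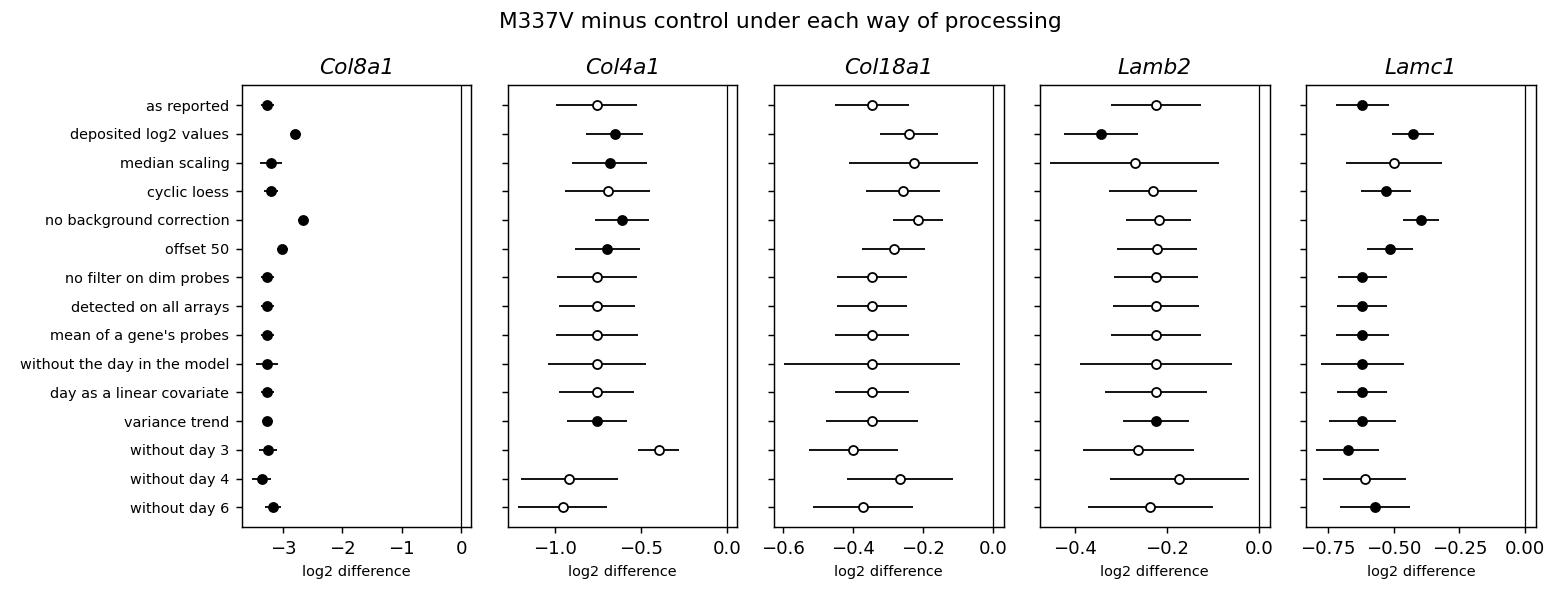
M337V minus control (horizontal axes, log2 units, a scale of its own for each gene) as reported and under 14 other ways of processing the arrays; bars are standard errors and filled circles have an adjusted p under 0.05. All points lie left of 0. Col8a1 is filled in every row, Lamc1 in all but median scaling and without day 4, and Col4a1 moves to -0.40 without day 3.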

How the data were processed

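The deposited intensity values are mean bead signals per probe, linear and not normalized, per the file headers, and GenomeStudio is named in the submitters' processing notes. The detection p-value sets each probe against negative control beads, per the file headers. The authors' deposited log2 values are log2 signals scaled to the upper quartile of each array (differences between arrays within 0.00179), less a value per probe, so their centring is unknown. Their column medians lie between -0.15 and 0.07.

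Signals were background-corrected (normexp from detection p-values, offset 16), quantile-normalized and logged with limma 3.58.1 in R 4.3.3. Probes named by 1 gene symbol in GEO's platform annotation and detected (p under 0.05) on 3 or more of 6 arrays were kept, and the brightest stands for its gene, leaving 7580 genes. Residual degrees of freedom were 2 (prior 3.53), and 1 (prior 4.71) for slopes. Array pairs are tied by the day in the labels, and their deviations correlated at 0.441, 0.0793 and 0.425 on days 3, 4 and 6. Simulated sets held 200 changed genes among 7580. At a change of 0.5 log2 units the genotype fit recovered 52, with 5 false calls. The fit of day 6 minus day 3 recovered 7, with 9 false calls. Most changes of that size were thus missed by both. At 1 these fits recovered 196 and 195 (11 and 17 false calls), and at 2 all 200 (36 and 24 false calls). The slope fit recovered 114, 200 and 200 at 0.5, 1 and 2 per day, with 9, 17 and 42 false calls. Sequences are RefSeq's (GRCr8), found for 9 of the 10 genes. All 10 genes and the lists were chosen with earlier results of these data known. Named list genes are up to 3 called rises and 3 called falls per list with the largest differences. Likeness names the 4 genes of highest r, and cell type lists up to 3 genes of largest difference and up to 3 of highest level. Further cell type genes are named for their detection. The number of arrays limits the precision.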

Additional observations from a re-analysis of the deposited data

How the results depend on the processing

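The difference between genotypes kept its sign for all 5 genes in all 14 alternatives, but most of these could not have turned it. Changes of the filter, the probe summary or the model left the estimate as reported, since each gene has 1 probe and each day 1 array per genotype. Leaving out a day could not turn it either, since all 3 daily differences were below 0. Only the other scalings, the background correction and the offset could have turned the sign. Of the 5 genes, 2 passed as reported, 4 passed with the deposited values, 4 with a variance trend, and 1 to 2 when a day was left out. Over all genes 966 passed with no replicate block (here the day), and 631 to 1055 with a day left out, the lowest without day 4. Of the 49 list genes 12 passed with no replicate block and 7 to 19 with a day left out. The block changed the call of none of the 5 genes between genotypes. For day 6 minus day 3, genes passing numbered 215 as reported, 698 with the deposited values, 634 with median scaling, 793 without background correction, 597 with an offset of 50, 493 among probes detected on all arrays, 927 with a variance trend, 1 without day 4 and 0 with no replicate block (599 at an unadjusted p under 0.05). Of the 5 genes, 2 passed there with the deposited values, 3 without background correction, 1 with an offset of 50, 1 among probes detected on all arrays and 3 with a variance trend. Slopes passing numbered 0 as reported, 189 with the deposited values, 195 with median scaling, 248 without background correction, 254 with an offset of 50, 1 without the filter on dim probes, 8 among probes detected on all arrays and 193 with a variance trend. The slope changed sign with median scaling for Col8a1 (0.0652), Col18a1 (0.142), Lamb2 (0.104) and Lamc1 (0.0769), with cyclic loess for Col18a1 (0.0282) and Lamb2 (0.0091), and for Col18a1 with the deposited values (0.0035), without background correction (0.0101) and with an offset of 50 (0.0060). The causes were not tested. The difference of differences between days 6 and 3 with the day as a factor was not run as a test, since it leaves no residual degrees of freedom. Dim probes limit the folds of Hpse, P4ha2 and Loxl2, and of Col8a1, Col18a1 and Lamc1, of which the last 3 have signals within 3 times the array median in M337V.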
